A study of Rattus norvegicus with 84 samples.

Results

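Plasma-derived extracellular vesicle (EV) mRNA was compared between control rats 10 days after stroke and healthy rats, with 3 rats in each group. The members are the 6 plasma mRNA libraries that the sample labels place in these groups, out of 21 plasma mRNA libraries and 84 libraries in the series, and the rows of the count table that carry an annotated gene. Control rats were wild type (WT), underwent middle cerebral artery occlusion with reperfusion in the right hemisphere, and were injected with saline through the carotid artery after stroke, whereas healthy rats are labelled WT and healthy, with no time point. All were adult male Sprague-Dawley rats, and each library came from the plasma of 1 rat. The healthy rats are not described as having had sham surgery or a saline injection, so stroke, surgery and injection cannot be told apart in this comparison. Control rats at 4 and 31 days after stroke, 3 each, are used below to place the values at 10 days. So are 3 rats given human neural stem cells (hNSCs) and sampled at 10 days. All 21 plasma mRNA libraries, in 7 groups, also entered the main statistical model. The p-values for 10 days against healthy rats therefore rest on the spread within all 7 groups.

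EVs are membrane-bound particles that cells release, and those in plasma come largely from blood cells, platelets, the endothelium and the liver. Reticulocytes, the youngest circulating red cells, still contain mRNA, and they shed membrane as vesicles while they mature. Their mRNA is dominated by the globins of hemoglobin, with transcripts for heme synthesis, the membrane skeleton and the removal of organelles and proteins. These transcripts are lost as the cell matures, so in blood they mark young red cells. Fewer cells of a type, fewer vesicles per cell and less RNA per vesicle cannot be told apart from the RNA of bulk plasma EVs.

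The 6 libraries held between 24655822 and 42197219 counts. Annotated genes took 55.1%, 48.6% and 56.5% of them at 10 days and 71.6%, 58.3% and 61.4% in healthy rats, without overlap (exact permutation test, two-sided, p = 0.1, the smallest possible). The libraries from 10 days had counts above 0 on 10703, 10277 and 9689 annotated genes, fewer than the 12708, 13661 and 11819 of the healthy libraries, and the groups did not overlap (same test, exact p = 0.1). Low counts were rare beside zeros. Each library listed 5121 to 9093 annotated genes at 0 and only 109 to 587 genes at 1 to 10 counts, so a gene listed at 0 may have been set there in the authors' processing, and this was not tested. Healthy rat 2 stood apart from the other libraries, with 297 genes of at least 10 CPM (counts scaled to library size, with TMM factors) over 4 times their level in each of the other 5 libraries, against 26 to 145 such genes in the others. Values without this library stand beside the results below that it moved most.

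The question was which EV mRNAs differ in plasma in the subacute phase after stroke. Of 18782 annotated genes, 14720 passed the filter on low counts and were tested with edgeR's quasi-likelihood test. None passed an adjusted p of 0.05 with a change over 1.5-fold, which is 0% of the genes tested. At an unadjusted p under 0.05, 158 genes were higher at 10 days (1.07% of those tested) and 667 were lower (4.53%). DESeq2 called 1242 genes, of which 169 were higher (1.15%) and 1073 lower (7.29%), and limma on log2(FPKM + 1) called 0 higher and 3 lower. Of the DESeq2 calls, 1135 were listed at 0 in at least 3 of the 6 libraries, and 101 had counts in all 6, of which 66 were higher and 35 lower. The median log2 fold change over all tested genes was -0.22, and over the same genes it was -0.02 without healthy rat 2.

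The 5 genes that led the higher side were Procr, Aqp1, Fech, Galnt10 and Ctsd, and none passed the adjusted threshold of edgeR. Procr encodes the endothelial protein C receptor, which presents protein C for activation on vessel walls. Its level was 66.0, 110 and 72.6 CPM at 10 days and 20.7, 18.8 and 14.9 CPM in healthy rats. All 3 control rats lay above all 3 healthy rats, with a log2 fold change of 2.19 (SE 0.48, edgeR adjusted p = 0.636). Aqp1, the water channel of red cells and capillary endothelium, was at 221, 515 and 301 CPM at 10 days and at 110, 91.5 and 102 CPM in healthy rats. Its log2 fold change was 1.78 (SE 0.41, edgeR adjusted p = 0.636). Fech, the ferrochelatase that inserts iron into heme, was at 1249, 765 and 915 CPM at 10 days and at 223, 144 and 302 CPM in healthy rats, again with no overlap. Its log2 fold change was 2.13 (SE 0.50, edgeR adjusted p = 0.636). Galnt10, an enzyme that starts O-linked glycosylation, was at 110, 95.6 and 109 CPM at 10 days against 27.6, 15.3 and 42.9 CPM, and the lysosomal protease Ctsd was at 156, 223 and 205 CPM against 71.8, 36.6 and 65.6 CPM. The log2 fold changes were 1.87 (SE 0.44) for Galnt10 and 1.74 (SE 0.43) for Ctsd, with the same edgeR adjusted p. DESeq2 called all of these genes, with adjusted p of 0.000138 for Procr, 0.000372 for Aqp1, 0.000258 for Fech and 0.000158 for Galnt10.

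**Figure D1:**
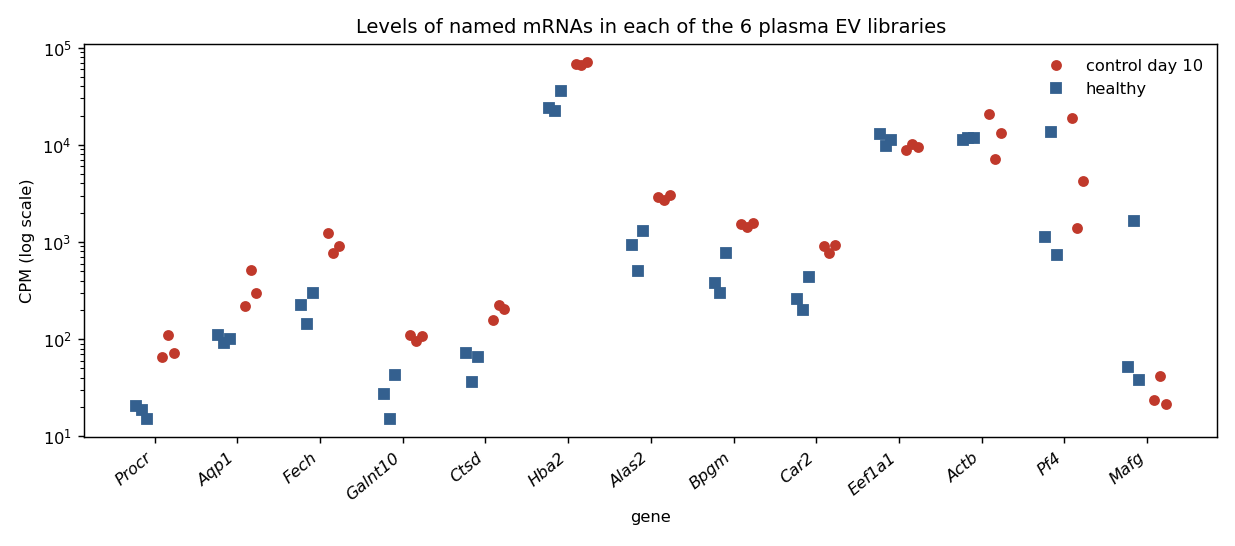
Levels (CPM, log scale) of named mRNAs in the 3 control rats at 10 days (circles) and the 3 healthy rats (squares), 1 point per rat. Procr, Aqp1, Fech, Galnt10, Ctsd, Hba2, Alas2, Bpgm and Car2 were higher in every control rat than in every healthy rat, whereas Actb and Pf4 overlapped and Mafg was high in healthy rat 2.

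Hemoglobin genes took a larger share of the annotated counts at 10 days. The share was 14.4%, 18.03% and 17.6% at 10 days and 7.46%, 4.27% and 10.8% in healthy rats. The means were 16.7% ± 1.99 (SD, n = 3) and 7.52% ± 3.28 (SD, n = 3), a ratio of 2.21 (exact permutation test, two-sided, p = 0.1, the smallest possible). Since the annotated share was lower at 10 days, the share of all counts was computed too, and it was 8.87% ± 1.02 (SD, n = 3) against 4.83% ± 2.13 (SD, n = 3), a ratio of 1.84 and again without overlap. Of 13 hemoglobin genes in the table, 10 were tested, all 10 were higher at 10 days, and 9 had an unadjusted p under 0.05 against 1.07% of all genes. Hbe2 and Hbg1, named for embryonic and fetal globins, were at 0 in all 6 libraries, and Hbe1 was too low to be tested. The groups did not overlap for 9 of the 10, against 3.64% of all genes with no overlap on the higher side and 8.61% on the lower side. The adult α globin Hba2 was at 68371, 65842 and 71257 CPM at 10 days and at 23846, 22138 and 35751 CPM in healthy rats. The control rats varied by 2709 CPM (SD) around a mean of 68490 CPM, and the healthy rats by 7416 CPM around 27245 CPM. The log2 fold changes were 1.33 (SE 0.42) for Hba2, 1.39 (SE 0.46) for Hba1 and 1.28 (SE 0.44) for the β globin Hbb, each with an edgeR adjusted p of 0.750. Rat globin genes occur in near-identical copies, among them Hba1 and Hba2. How reads were divided between copies is uncertain, whereas the summed share does not depend on it.

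**Figure D2:**
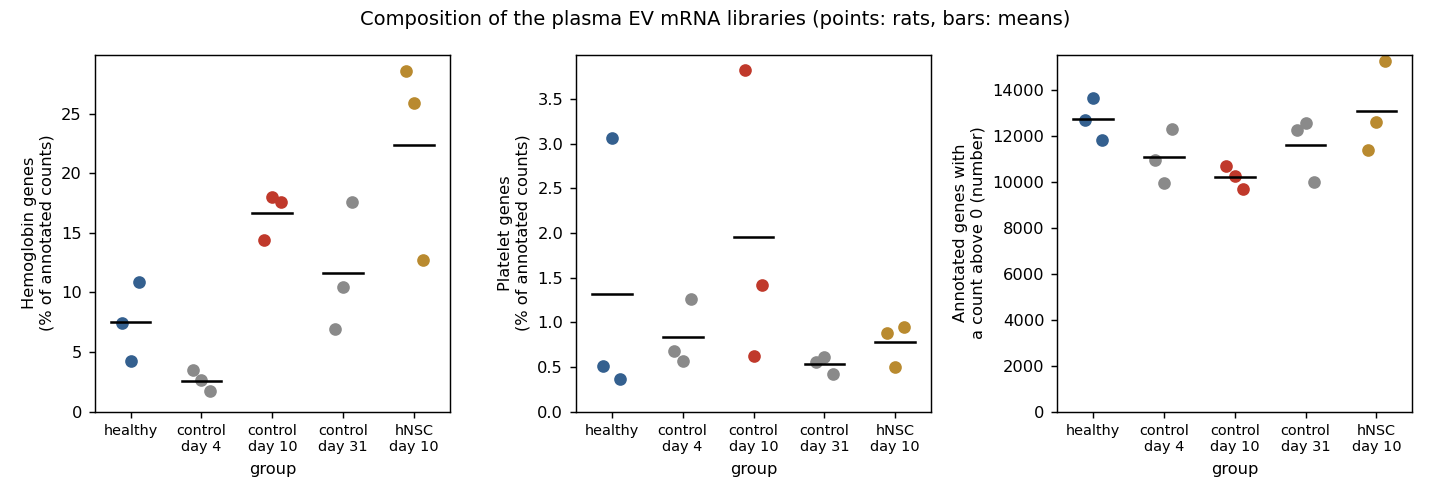
Share of annotated counts on hemoglobin genes and on platelet genes (%), and number of annotated genes with a count above 0, for 3 rats per group (points) with group means (bars). Hemoglobin shares at 10 days (14.4% to 18.03%) lay above the healthy range of 4.27% to 10.8%, platelet shares overlapped, and detected genes were fewest at 10 days among the 5 means.

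Genes of heme and iron handling were mixed, with 14 of the 21 tested above 0 and 7 below. Alas2 encodes the erythroid enzyme that starts heme synthesis, and its level was 2883, 2701 and 3010 CPM at 10 days and 942, 504 and 1297 CPM in healthy rats. Its log2 fold change was 1.65 (SE 0.51, edgeR adjusted p = 0.726). The mitochondrial carrier Slc25a39 was at 600, 459 and 489 CPM against 187, 135 and 224 CPM, a log2 fold change of 1.5 (SE 0.39, edgeR adjusted p = 0.636). The ferritin heavy chain Fth1, which stores iron in many cell types, overlapped between the groups, at 33156, 6093 and 12184 CPM against 6741, 19775 and 3842 CPM. Of the 21 genes of this list tested, 6 were higher and 1 lower at an unadjusted p under 0.05 (1.07% and 4.53% of all genes). The median log2 fold change was 0.99. The higher count was 4 without healthy rat 1, healthy rat 2 or control rat 2, and the median was 0.27 without control rat 1. The gene on the lower side was Steap3, an iron reductase, which was listed at 0 at 10 days and in healthy rat 3. Alas2 and Slc25a39 were picked out after their values were seen, as were the other genes named from here on beyond the leading and most abundant genes and list members at the top of their list.

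Promoter sequences are printed for the globin gene Hba-a1, for Alas2 and for the leading genes Aqp1 and Procr, since each had an unadjusted p under 0.05 on the higher side. Hba-a1 itself overlapped between the groups in 1 control rat, with a log2 fold change of 1.41. They run from 250 bases before to 50 bases after the start of the gene and come from RefSeq. Capitals mark matches on either strand to the red cell GATA motif (the letters AGATAA, with the alternative last letter AGATAG, the alternative first letter TGATAA or both changed TGATAG) and to a CACC-type motif (CCNCNCCC), which may overlap each other.
Hba-a1, GRCr8 chr10:15842531-15842830, minus strand: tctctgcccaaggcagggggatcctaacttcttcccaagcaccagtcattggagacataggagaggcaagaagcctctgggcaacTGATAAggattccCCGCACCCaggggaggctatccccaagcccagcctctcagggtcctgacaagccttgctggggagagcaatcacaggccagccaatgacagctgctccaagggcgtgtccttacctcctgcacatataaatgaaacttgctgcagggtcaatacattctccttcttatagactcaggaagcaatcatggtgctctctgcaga
Alas2, GRCr8 chrX:22895200-22895499, plus strand: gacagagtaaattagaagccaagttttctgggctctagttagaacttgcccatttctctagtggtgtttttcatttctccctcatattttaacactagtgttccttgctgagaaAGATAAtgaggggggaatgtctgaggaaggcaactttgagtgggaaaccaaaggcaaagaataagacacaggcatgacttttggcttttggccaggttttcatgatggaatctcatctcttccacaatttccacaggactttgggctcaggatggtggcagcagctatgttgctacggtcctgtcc
Aqp1, GRCr8 chr4:85812534-85812833, plus strand: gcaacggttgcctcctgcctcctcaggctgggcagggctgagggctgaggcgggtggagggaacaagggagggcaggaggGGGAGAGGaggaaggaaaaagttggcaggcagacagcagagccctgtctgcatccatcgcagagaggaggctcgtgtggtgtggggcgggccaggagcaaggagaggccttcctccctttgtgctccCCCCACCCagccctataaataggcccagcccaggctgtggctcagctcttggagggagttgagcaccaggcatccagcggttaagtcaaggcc
Procr, GRCr8 chr3:164714477-164714776, plus strand: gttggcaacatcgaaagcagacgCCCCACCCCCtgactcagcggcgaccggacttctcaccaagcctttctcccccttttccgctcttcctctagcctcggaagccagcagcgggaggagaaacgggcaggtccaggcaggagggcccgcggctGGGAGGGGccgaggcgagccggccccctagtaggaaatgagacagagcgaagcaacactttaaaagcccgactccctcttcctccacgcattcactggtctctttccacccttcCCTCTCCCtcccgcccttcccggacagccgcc
The Hba-a1 promoter holds a GATA match 165 bases before the start and a CACC-type match beside it, and the Alas2 promoter holds a GATA match 136 bases before the start. Aqp1 and Procr hold only CACC-type matches in these 300 bases. The same was true of Bpgm and Galnt10, which are not printed though they too were higher at an unadjusted p under 0.05. Promoters were found by symbol for 45 of the 69 tested genes of the 4 red cell lists, and 19 of them (42.2%) held a GATA match and 36 (80%) a CACC-type match. Among all 27457 promoters of the table the shares were 29.9% and 47.2%, and among the 10359 tested genes with a promoter they were 19.5% and 65.5%. The red cell lists differed in GATA matches. Of the promoters found, 3 of 4 hemoglobin, 8 of 12 membrane and 5 of 14 maturation promoters held one. For heme and iron genes it was 3 of 15 (20%), close to the share among tested genes. A match is a run of letters and not evidence of binding.

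Genes of the red cell membrane and its skeleton had a log2 fold change above 0 in 15 of 17 cases. Of these genes, 7 were higher and 1 lower at an unadjusted p under 0.05 (1.07% and 4.53% of all genes), and 11 were higher in every control rat than in every healthy rat (3.64% of all genes). The higher count was 4 without healthy rat 2 and 3 without control rat 1 or without healthy rat 1. The median of 1.75 then lay between 1.34 and 1.56. DESeq2 called only 1 of the 17 genes higher, Aqp1, and 1 lower (1.15% and 7.29% of all genes). Slc4a1, the band 3 anion exchanger, was at 1981, 1200 and 1671 CPM at 10 days and at 321, 126 and 624 CPM in healthy rats. The groups did not overlap, but the log2 fold change of 2.18 had an edgeR unadjusted p of 0.0808. Epb41, which encodes protein 4.1 of the skeleton, was at 2156, 912 and 1423 CPM against 591, 874 and 598 CPM. Kel, the Kell blood group protein, was at 163, 140 and 130 CPM against 9.85, 10.1 and 64.6 CPM, a log2 fold change of 2.35 (edgeR unadjusted p = 0.0245). The gene on the lower side was Rhag, which was listed at 0 in all libraries except healthy rat 2, at 15.2 CPM. Mpp1, a membrane scaffold protein of red cells that was not in the list, was at 493, 336 and 479 CPM against 134, 61.2 and 134 CPM, a log2 fold change of 1.99 (SE 0.51, edgeR adjusted p = 0.636).

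Genes of reticulocyte maturation gave the highest count of the 4 red cell lists. Of 21 tested, 20 had a log2 fold change above 0, 12 were higher at an unadjusted p under 0.05 and 0 lower, and 17 did not overlap between the groups. These counts stand against 1.07% of all genes for the first and 3.64% for the last, and with 1 rat left out the 12 became 11 to 13. Bpgm makes the 2,3-bisphosphoglycerate that lowers oxygen affinity, and it was at 1526, 1417 and 1573 CPM at 10 days and at 378, 296 and 766 CPM in healthy rats. The carbonic anhydrase Car2 was at 916, 775 and 932 CPM against 262, 199 and 438 CPM. Their log2 fold changes were 1.65 (SE 0.48) and 1.55 (SE 0.44), with edgeR adjusted p of 0.688 and 0.647. The catalase gene Cat was at 907, 787 and 918 CPM against 346, 295 and 473 CPM. Bnip3l, the receptor through which reticulocytes remove their mitochondria, was at 1258, 772 and 784 CPM against 353, 366 and 456 CPM. The α hemoglobin stabilizing protein Ahsp was at 463, 220 and 243 CPM against 53.7, 31.7 and 138 CPM. In all of these genes every control rat lay above every healthy rat, and DESeq2 called them with adjusted p of 0.00271 for Bpgm, 0.00168 for Car2, 0.00215 for Cat, 0.00444 for Bnip3l and 0.0113 for Ahsp. Tspo2, an erythroid relative of the mitochondrial translocator protein, was at 9.86, 16.7 and 14.1 CPM at 10 days and listed at 0 in all healthy rats.

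Taking the 4 lists together, 69 genes were tested, 59 had a log2 fold change above 0, and 34 were higher at an unadjusted p under 0.05 (1.07% of all genes) while 2 were lower (4.53% of all genes). Their median log2 fold change was 1.41, against -0.22 over all genes. Without healthy rat 2, with 70 tested, the count was 28 higher and 0 lower, and the median was 1.35. DESeq2 called 24 of them higher (1.15% of all genes) and 2 lower (7.29%). Of its 66 higher calls with counts in all 6 libraries, 22 were red cell genes, which made up 57 of the 7394 tested genes with counts in all 6. The erythroid transcription factors did not share the direction, with 6 of 12 above 0, 0 at an unadjusted p under 0.05 and a median of -0.10. Klf1, a master factor of globin expression, was at 59.1, 93.7 and 54.0 CPM at 10 days and at 11.7, 9.94 and 8.31 CPM in healthy rats (edgeR unadjusted p = 0.0515). Tal1 was at 334, 149 and 271 CPM against 59.3, 2796 and 47.5 CPM, and Zfpm1 at 338, 119 and 234 CPM against 78.5, 847 and 98.1 CPM, so both were highest in healthy rat 2. Without that rat the median of this list was 1.01 and 4 of its genes were higher at an unadjusted p under 0.05.

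**Figure D3:**
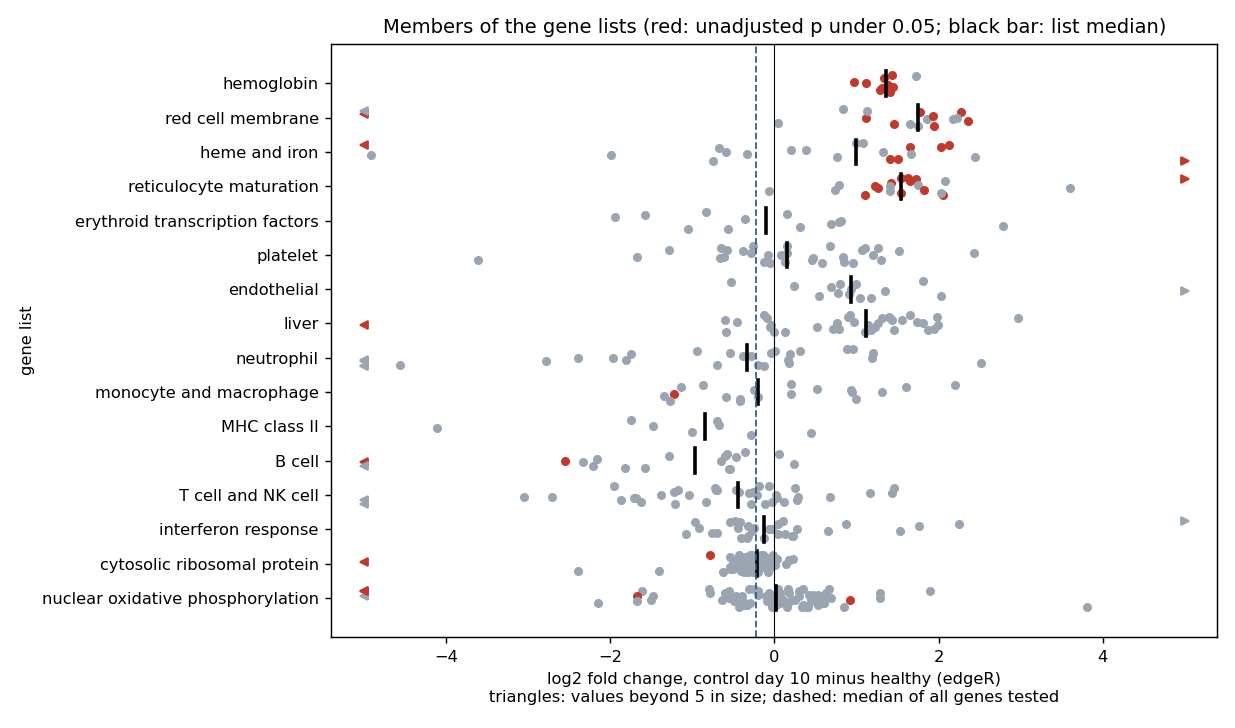
EdgeR log2 fold changes (control at 10 days minus healthy, horizontal axis) of the tested members of 16 gene lists, 1 point per gene, with list medians as bars and the median of all genes (-0.22) as a dashed line. Red points had an unadjusted p under 0.05, and they stood mainly on the higher side in the hemoglobin, membrane, heme and maturation lists, with medians of 1.36, 1.75, 0.99 and 1.55.

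Day 10 was then set against the other time points of the control rats. The hemoglobin share was 1.73% to 3.45% at 4 days and 6.90% to 17.6% at 31 days. Against 4 days, edgeR called 54 genes higher at 10 days (0.367% of those tested) and 3 lower, and 26 of the 54 belonged to the 4 red cell lists, which is 26 of their 69 tested genes. These included 9 of the 10 tested hemoglobin genes. Fech rose from 65.0, 29.6 and 23.7 CPM at 4 days to 1249, 765 and 915 CPM at 10 days, a log2 fold change of 4.63 (SE 0.56, edgeR adjusted p = 0.000272). Galnt10 rose from 10.1, 12.0 and 13.9 CPM to 110, 95.6 and 109 CPM, a log2 fold change of 3.12 (SE 0.47, edgeR adjusted p = 0.00145). Alas2 rose from 72.6, 112 and 92.6 CPM to 2883, 2701 and 3010 CPM (log2 fold change 4.96, edgeR adjusted p = 0.000272), and Hba2 from 10513, 8458 and 5690 CPM to 68371, 65842 and 71257 CPM (log2 fold change 3.06, edgeR adjusted p = 0.00145). The rats of the 2 days did not overlap for any of these genes. Procr differed in pattern, at 187, 121 and 58.9 CPM at 4 days, and its difference between days was -0.56 on the log2 scale (SE 0.46, edgeR adjusted p = 0.902).

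Against 31 days edgeR called 0 genes, which is 0% of those tested, and 0 red cell genes. Fech at 31 days was at 193, 353 and 578 CPM, and the difference of 1.38 on the log2 scale (SE 0.49) had an edgeR adjusted p of 0.640. Galnt10 was at 37.7, 42.5 and 47.1 CPM at 31 days, below every rat at 10 days, with a difference of 1.30 (SE 0.44) and the same adjusted p. Hba2 at 31 days covered a wide range, at 25598, 36957 and 68140 CPM, and its highest rat reached the level of 10 days. Rats given hNSCs had a hemoglobin share of 12.7% to 28.6% at 10 days. None of the 4 leading higher genes passed the test between hNSCs and control rats at 10 days, with log2 differences between -0.56 for Procr and 0.37 for Fech. The medians of the 4 red cell lists together against the same healthy rats, which these comparisons share, were 1.41 in control rats and 1.98 in hNSCs rats at 10 days, -1.16 in control rats at 4 days and 0.57 at 31 days.

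**Figure D4:**
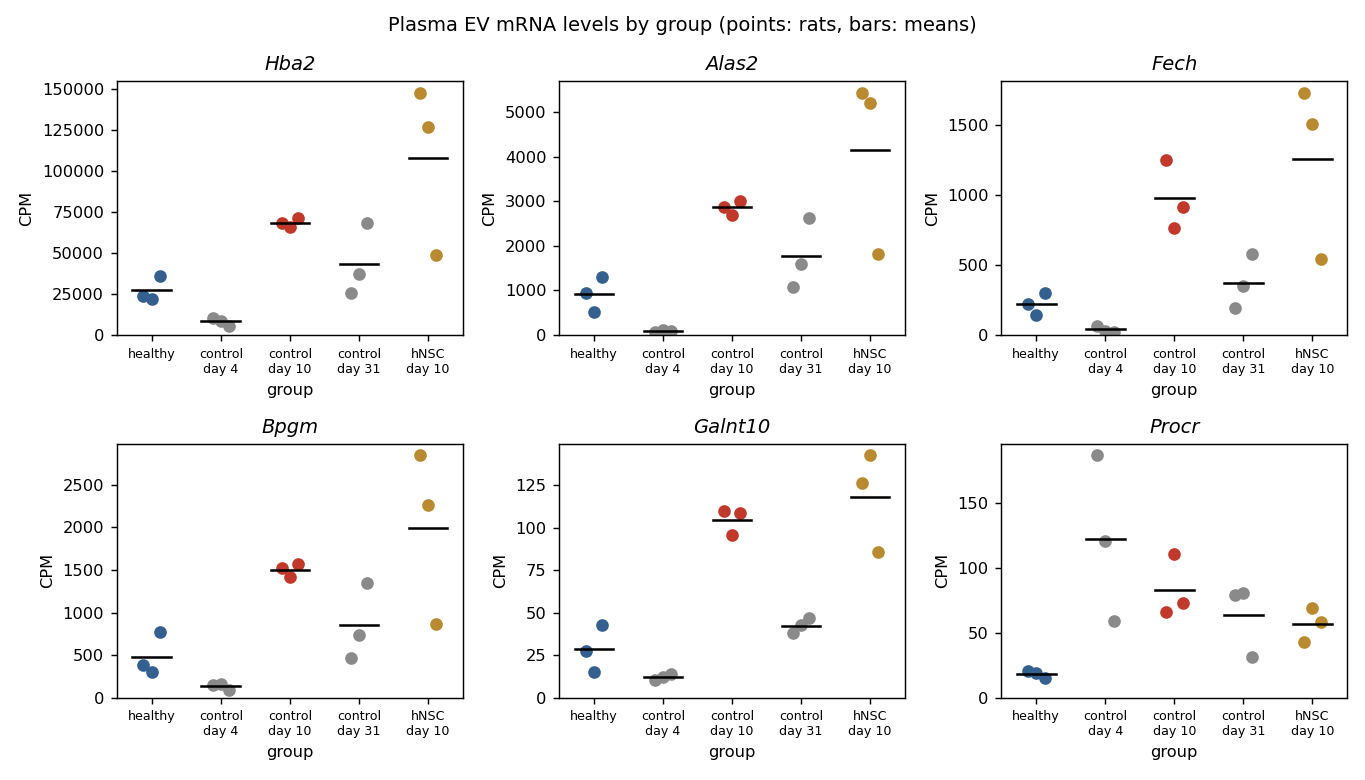
Plasma EV mRNA levels (CPM) of Hba2, Alas2, Fech, Bpgm, Galnt10 and Procr in 5 groups of 3 rats (points) with group means (bars). The first 5 genes were lowest at 4 days and higher at 10 days, where Alas2 stood at 2701 to 3010 CPM against 72.6 to 112 CPM, whereas Procr was highest on average at 4 days.

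The miRNAs of red cells were measured in small RNA libraries of the same rats. The sequences of 4 of them are shown because they are the red cell miRNAs set against the red cell mRNAs, with the seed (bases 2 to 8), which pairs with targets, in capitals. The sequences are from RefSeq.
miR-451-5p: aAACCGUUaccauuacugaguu
miR-144-3p: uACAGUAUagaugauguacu
miR-16-5p: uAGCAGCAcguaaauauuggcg
miR-92a-3p: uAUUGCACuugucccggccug
The seeds of these 4 differ from each other, whereas miR-25-3p shares the seed of miR-92a-3p. Of 309 known miRNAs tested, edgeR and DESeq2 each called 0 (0% of those tested), and 23 had an unadjusted p under 0.05 in edgeR. None of the 23 tested marker miRNAs, of 24 listed, was among them. miR-451-5p, the main miRNA of red cells, was at 1027, 1864 and 2203 CPM at 10 days and at 1469, 773 and 3103 CPM in healthy rats, and the groups overlapped. Its log2 fold change of -0.07 had a 95% interval of -1.75 to 1.61, and its sign depended on the processing. miR-144-3p, from the same precursor cluster, was at 681, 1554 and 1652 CPM against 1038, 352 and 2178 CPM (log2 fold change 0.12, 95% interval -1.65 to 1.90). The log2 fold change of 1.33 of Hba2 lies within the 95% intervals of miR-451-5p, miR-144-3p, miR-144-5p (-1.42 to 2.24) and miR-486 (-2.12 to 1.44). It lies above those of miR-16-5p (-1.54 to 0.66), miR-92a-3p (-0.83 to 1.10) and miR-25-3p (-1.40 to 0.24). Whether the miRNAs and the mRNA differed in their change was not tested. miR-16-5p, abundant in red cells and many others, was at 128239, 137586 and 192958 CPM against 201047, 136906 and 283842 CPM. The other red cell miRNAs, miR-144-5p, miR-486, miR-92a-3p and miR-25-3p, had log2 fold changes between -0.58 and 0.41. Each had an edgeR adjusted p of 0.683 or more. Of these, miR-25-3p did not overlap between the groups, at 4351, 3725 and 5108 CPM against 5499, 7440 and 6786 CPM. Every control rat lay below every healthy rat for it, with a log2 fold change of -0.58 (SE 0.39).

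**Figure D5:**
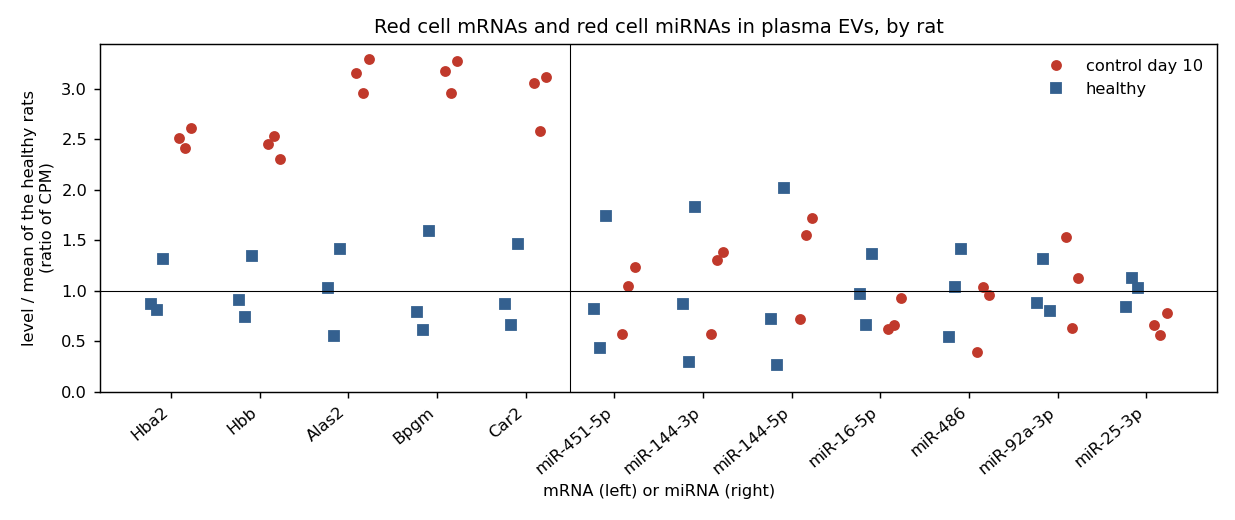
Levels in each rat divided by the mean of the healthy rats (ratio of CPM) for 5 red cell mRNAs (left) and 7 red cell miRNAs (right), with control rats at 10 days as circles and healthy rats as squares. The mRNAs separated the groups, whereas miR-451-5p at 1027 to 2203 CPM lay within the healthy range of 773 to 3103 CPM.

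Marker miRNAs of other sources overlapped between the groups or missed the threshold. The lymphocyte miRNA miR-150-5p was at 7883, 12366 and 17545 CPM at 10 days and at 28638, 22861 and 22363 CPM in healthy rats. Every control rat lay below every healthy rat, with a log2 fold change of -0.97 (SE 0.51, edgeR adjusted p = 0.663). miR-155-5p, of activated lymphocytes, was at 155, 213 and 285 CPM against 374, 343 and 537 CPM, a log2 fold change of -0.94 (SE 0.50, edgeR adjusted p = 0.663). The hepatocyte miRNA miR-122-5p was at 14086, 56689 and 23752 CPM against 77396, 144420 and 17218 CPM, with overlap.

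The genes that led the lower side were listed at 0 in all 3 control rats. Zfp282, a zinc finger protein, was at 2.87, 3.75 and 6.53 CPM in healthy rats, and Id4, an inhibitor of helix-loop-helix factors, at 5.62, 13 and 0.679 CPM. Dguok, which salvages purine nucleosides in mitochondria, was at 17.6, 8.90 and 18.4 CPM, Cenpj, a centriole protein, at 24.9, 15.4 and 13.4 CPM, and Tbce, a tubulin folding factor, at 23.8, 31.6 and 25.4 CPM. Against a floor of 3 counts over the control group these were at least 78.7-fold, 95.9-fold, 305-fold, 362-fold and 475-fold lower, and the edgeR adjusted p was 0.415 for Zfp282 and Id4 and 0.636 for the other three. These bounds cover counting error only and assume that a listed 0 means an absence of counts. The 5 genes had counts in every control rat at 4 or 31 days after stroke and in every rat of the hNSCs group at 10 days after stroke. Zfp282 fell from 10.3, 15.9 and 9.70 CPM at 4 days and Id4 from 50.4, 10.2 and 28.4 CPM, with edgeR adjusted p of 0.00707 and 0.00531. In all, 2164 tested genes were at 0 in the 3 control rats and 605 in the 3 healthy rats, and 70 of the former had at least 5 CPM in each healthy rat. Other genes on the lower side were high in healthy rat 2. Mafg, a small Maf factor, was at 24.0, 41.9 and 21.5 CPM at 10 days and at 52.2, 1659 and 38.0 CPM in healthy rats, and Fam168b was at 86.0, 44.7 and 110 CPM against 200, 1228 and 161 CPM. Without that rat the log2 fold change of Mafg went from -4.32 to -0.63 and that of Fam168b from -2.73 to -1.17.

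The 10 annotated genes with the highest mean CPM, which is not corrected for length, were Hba2, Hba1, Fth1, LOC100134871, Actb, Eef1a1, Hbb, Pabpc1, Tmsb4x and Pf4. Of these, the 4 hemoglobin genes did not overlap between the groups, and the other 6 did. Actb, the cytoskeletal β actin, was at 20504, 7200 and 13153 CPM at 10 days and at 11081, 11856 and 11700 CPM in healthy rats, and its log2 fold change of 0.24 (SE 0.40) turned negative on the FPKM scale and without control rat 1. The elongation factor Eef1a1 was at 8896, 10223 and 9419 CPM against 13012, 9803 and 11101 CPM. The platelet chemokine Pf4 was at 18864, 1394 and 4283 CPM against 1121, 13466 and 729 CPM.

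Platelet genes divided the rats across the groups. Their share of annotated counts was 3.82%, 0.620% and 1.42% at 10 days and 0.507%, 3.06% and 0.359% in healthy rats, so control rat 1 and healthy rat 2 stood apart (exact permutation test, two-sided, p = 0.5). Of 31 platelet genes tested, 0 had an unadjusted p under 0.05 and the median log2 fold change was 0.15. Without healthy rat 2, 20 of the 31 were higher at 10 days at an unadjusted p under 0.05, against 1.69% of all genes (2.62% were lower), and the median was 2.73. Without control rat 1 the median was -0.89. The part of platelet RNA in the results for red cell genes was not tested. Hemoglobin shares were 14.4%, 18.03% and 17.6% in control rats 1, 2 and 3, beside the platelet shares of 3.82%, 0.620% and 1.42%.

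Lists for white blood cells had medians below 0 with all 6 libraries, but the median of all tested genes was itself -0.22. The monocyte and macrophage median of -0.20 lay above that of all genes. Without healthy rat 3 the medians for neutrophils (0.15) and for monocytes and macrophages (0.25) turned positive. Of 18 B cell genes tested, 16 had a log2 fold change below 0, against 8752 of all 14720 genes, and the median was -0.97. At an unadjusted p under 0.05, 2 of the B cell genes were lower, against 4.53% of all genes. These were Pou2af1, a B cell coactivator, at 18.8, 14.4 and 3.75 CPM against 103, 18.5 and 96.4 CPM, and Fcrla, listed at 0 at 10 days. The 8 MHC class II genes had a median of -0.85, with 0 at an unadjusted p under 0.05, and their most abundant gene Cd74 was at 185, 289 and 340 CPM against 407, 149 and 435 CPM. T cell and NK cell genes (38 tested, 0 at an unadjusted p under 0.05, median -0.45) and neutrophil genes (28 tested, 0, median -0.33) had no such gene on either side, and monocyte and macrophage genes had 1 lower (19 tested, median -0.20). The groups did not overlap for 6 T cell and NK cell genes, all lower at 10 days (Bcl11b, Cd2, Gata3, Cd3g, Il7r and Klrd1), against 8.61% of all genes. The 1 gene of the monocyte and macrophage list was Aif1, at 57.0, 48.2 and 60.9 CPM against 149, 44.2 and 195 CPM.

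Liver and endothelial genes were mostly above 0 without passing. Of 36 liver genes tested, 27 had a log2 fold change above 0 (median 1.12), 0 were higher and 1, A2m, was lower at an unadjusted p under 0.05, having counts in healthy rat 1 alone. The median was 0.38 without control rat 2 and 1.72 without healthy rat 2. Alb, which encodes albumin, was at 3338, 10717 and 2757 CPM against 1478, 3325 and 1300 CPM, and the liver share was highest in control rat 2, at 3.11% of annotated counts against 0.433% to 0.851% in the other 5 libraries. Of 15 endothelial genes, 14 were above 0 (median 0.93), with 0 at an unadjusted p under 0.05. Pecam1, an adhesion molecule between endothelial cells and on platelets, was at 117, 153 and 118 CPM against 69.4, 69.8 and 86.5 CPM, without overlap (edgeR unadjusted p = 0.0843). Interferon response genes had a median of -0.12 with 0 of 31 at an unadjusted p under 0.05, although Rsad2, the antiviral viperin, was at 1029, 859 and 976 CPM at 10 days and at 105, 81.9 and 416 CPM in healthy rats (edgeR unadjusted p = 0.0638).

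For markers of brain cells, the test covered 8 of 14 neuron genes and 9 of 15 astrocyte and oligodendrocyte genes, with 0 and 1 at an unadjusted p under 0.05 and medians of 0.22 and 0.16. The neuron median had no stable sign, going from 2.21 without healthy rat 2, with 1 gene then higher, to -4.60 without control rat 1. The astrocyte and oligodendrocyte median was 0.63 without healthy rat 2, with 0 genes lower. The 1 gene was Aldh1l1, listed at 0 at 10 days and in healthy rat 3. The astrocyte filament gene Gfap was at 2.87, 31.8 and 16.6 CPM at 10 days and at 2.38, 8.37 and 1.70 CPM in healthy rats, and the groups overlapped. The neuronal nuclear protein gene Rbfox3 had counts in healthy rat 2 alone.

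The other lists had 5 or fewer members at an unadjusted p under 0.05. Skeletal muscle genes (17 tested), actin cytoskeleton genes (22) and heat shock and chaperone genes (13) had 0 members at an unadjusted p under 0.05, with medians of 0.00, -0.09 and 0.43. The muscle median was -1.33 without control rat 1, and DESeq2 called 5 of the 17 muscle genes lower (7.29% of all genes) and 0 higher. Cell cycle genes (27 tested, median -0.21), proteasome genes (37, median 0.03) and immediate early genes (17, median -0.22) had 1 lower each, namely Ccnb2, Psmd1 and Egr1. Without healthy rat 1 the cell cycle median was 0.18 and the histone median 0.49, and without healthy rat 3 the immediate early median was 0.20. Of 43 histone genes (median -0.17) H2afj was higher at an unadjusted p under 0.05. Among 24 EV biogenesis genes (median 0.16), Cd82, a tetraspanin, was higher at 124, 90.1 and 111 CPM against 38.8, 25.9 and 56.8 CPM, and Rab27b, which docks secretory vesicles, was lower through the level in healthy rat 2, at 192, 72.7 and 239 CPM against 58.0, 3071 and 34.7 CPM. Of 88 cytosolic ribosomal protein genes, 82 had a log2 fold change below 0 with a median of -0.21, close to that of all genes, and 2 were lower at an unadjusted p under 0.05, Rpl34 and Rpl3l, against 0 without healthy rat 2. The 79 nuclear genes of oxidative phosphorylation had a median of 0.02, with Uqcrq higher and Ndufb6, Uqcr10 and Ndufa3 lower.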

How the data were processed

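Plasma EV mRNA was sequenced in 21 libraries, and groups were taken from the sample labels, 3 rats in each of 7. One label names serum as the source of the EVs, the others plasma. EVs were isolated by size exclusion chromatography. Per the study's methods, the authors used Bowtie2 for alignment, with Rnor_6.0 as the genome, and StringTie for FPKM. Deposited mRNA counts are raw reads per gene, and the counting tool, its strand setting and its version are not given in the sources used here. FPKM values were deposited as StringTie gave them to the authors. For miRNA, the authors deposited UMI counts and, made from them, TPM values. The 7855 unannotated genes were left out except in 1 alternative.

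edgeR 4.0.16 (R 4.3.3) fitted 1 quasi-likelihood model to the 7 plasma groups after filterByExpr and TMM. Genes were called where the Benjamini-Hochberg adjusted p fell under 0.05 with a change over 1.5-fold. DESeq2 1.42.0 and limma 3.58.1, with a pseudocount of 1 or 0.1 on FPKM or TPM, served as alternatives. The steps were tested on simulated data. P-values measure the spread between single rats. Named genes were the 5 of smallest p in each direction (since fewer than 5 were called), the 10 of highest mean CPM, list members and others marked as picked after their values were seen. The members and the 26 mRNA and 6 miRNA lists were chosen with earlier results of these data known.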

Additional observations from a re-analysis of the deposited data

Results flagged for a closer look

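Control rats at 10 days differed from control rats at 4 days for 4 of the leading genes by edgeR's direct test of the difference between days. The difference was 4.63 on the log2 scale for Fech (adjusted p = 0.000272) and 3.12 for Galnt10 (adjusted p = 0.00145), higher in 3 of 3 rats. It was -11.0 for Zfp282 (adjusted p = 0.00707) and -12.3 for Id4 (adjusted p = 0.00531), and both genes were listed at 0 in all rats at 10 days, so that these 2 values depend on the prior count of the fit and are no measure of size.

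The hemoglobin share of annotated counts was 14.1 percentage points higher at 10 days than at 4 days. Against the healthy mean, every rat at 10 days was above and every rat at 4 days below, and this opposite direction was itself not tested beyond an exact permutation test of the shares (two-sided, p = 0.1, the smallest possible).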

How the results depend on the processing

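The count of 0 calls between 10 days and healthy rats became 1242 with DESeq2 (169 higher, 1073 lower), 3 with limma on log2(FPKM + 1) and 2 on log2(FPKM + 0.1), all of them lower. Leaving out 1 rat gave 0 to 2 calls, 0 to 2 of them lower, and the 2 came without control rat 1. At an unadjusted p under 0.05, DESeq2 gave 333 higher and 1366 lower. With only the 2 groups in the edgeR model, 0 genes were called. At the same unadjusted threshold 236 genes were then higher and 579 lower, and 45 red cell genes were higher in place of 34. Leaving out 1 rat gave 104 to 265 higher and 409 to 691 lower, with 104 without healthy rat 1 and 265 and 409 without healthy rat 2. The lower count was 421 in limma at a mean FPKM of at least 1 and 178 among genes above 0 in all 6 libraries, a setting chosen after seeing the data. In this last setting, which leaves out genes listed at 0 in any of the 6 libraries, the higher count was 160 against 158. The cause of these changes was not tested.

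The hemoglobin difference was 4.04 percentage points of all counts and 15.9 of summed FPKM. With DESeq2, 12 differences of named genes between days were called in place of 4. It called 43 red cell genes higher than at 4 days in place of 26. Against healthy rats DESeq2 called 1242 genes in place of 0. Its share of all genes between days is not given here, so the rise to 43 is not a result about red cell genes. Platelet genes at an unadjusted p under 0.05 numbered 0 to 20 with 1 rat left out. The red cell count between days and the gene lists with 1 rat left out were chosen after seeing the data.

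Signs turned for 8 values that missed the threshold. Actb was at -0.10 in each limma fit. With 1 rat left out, Fth1 ranged from -0.15 to 1.70, Actb from -0.18 to 0.54, Pabpc1 from -0.48 to 0.66, Tmsb4x from -0.29 to 0.91 and Pf4 from -0.85 to 3.14. Under the same omissions miR-451-5p ranged from -0.33 to 0.85, miR-144-3p from -0.23 to 1.13 and miR-16-5p from -0.54 to 0.16. miR-451-5p was at 0.10 with DESeq2 and with RLE factors, 0.089 with no TMM, 0.14 with no filter, 0.17 with only the 2 groups and 0.31 in each limma fit.

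Rats of the same number correlated at -0.051, -0.058 and 0.060 in their deviations from the group means. For rats of unlike number the values ran from -0.11 to 0.14. Whether rats of the same number shared handling or a batch was not tested, and the main model treated them as unpaired. With the replicate number as a block, 0 genes were called, 129 were higher and 553 lower at an unadjusted p under 0.05, 33 red cell genes were higher, and miR-451-5p was at 0.0021. With 3 rats a group, and zeros in many genes, the 0 calls do not mean that only small differences were present. Procr, with a log2 fold change of 2.19 and no overlap between the groups, was not called by edgeR.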

Other observations

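Besides Tspo2, only Sftpc and Sftpa1 had at least 5 CPM in every control rat at 10 days and 0 in every healthy rat. Both encode lung surfactant proteins. Sftpc was at 12.3, 22.1 and 28.6 CPM and Sftpa1 at 23.3, 17.1 and 42.2 CPM at 10 days. Against a floor of 3 counts over the healthy group, these levels were at least 513-fold and 663-fold higher, and the bound for Tspo2 was 324-fold. As on the lower side, the bounds cover counting error only and assume that a listed 0 means an absence of counts. At 4 days Sftpc was at 12.1, 0 and 6.21 CPM and Sftpa1 at 24.6, 0 and 20.6 CPM, and both were at 0 in all control rats at 31 days. In rats given hNSCs, at the same 10 days, Sftpc was at 0, 0 and 5.59 CPM and Sftpa1 at 0, 0 and 7.90 CPM. The genes were picked after their values were seen.

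Hemgn, a nuclear protein of red cell precursors outside the lists, was at 764, 544 and 408 CPM at 10 days and at 81.6, 116 and 266 CPM in healthy rats, without overlap.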
